A study of Mus musculus with 8 samples.

Results

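Secreted digestive enzymes and Bpifa2 were followed in RNA from exorbital lacrimal glands (LGs), 8 genes of the 24552 in the count table. They are the amylases Amy1 and Amy2a5, the lipase-related Pnliprp1 and Pnliprp2, the lipase cofactor Clps, the lipase Cel, the nuclease Dnase1 and the salivary protein gene Bpifa2. They were picked by symbol while the counts of these libraries, and how they differed between diets, were already known. Levels and differences of these genes between the diets are therefore given as a description and not as a test. All 8 symbols were in the table, and 4 genes, Amy1, Bpifa2, Dnase1 and Pnliprp1, were counted often enough to enter the comparison across genes.

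The libraries came from female C57BL/6J mice of 10 to 11 months of age. One group of 4 ate ad libitum (AL). The other group of 4 had been on a 40% calorie restriction (CR) for 4 months, started at 6 to 7 months of age. The study used 2 cohorts of mice whose chow differed, and in one of them the restricted chow was enriched in vitamins and micronutrients. The cohort that gave these LGs is not given in the sources used here. Daily feeding of CR mice shortly before dark is stated after the description of 1 cohort, so it may not hold for these LGs. All mice were of 1 sex and strain, and RNA came from bulk gland tissue, in which fewer cells of a type and less RNA per cell cannot be told apart. Totals ranged from 12051881 to 22156511 counts in the AL libraries and from 13720079 to 19310319 in the CR libraries. Levels are given as CPM, the usual depth-scaled count, with library sizes adjusted by relative log expression (RLE), and 3 counts, taken as the floor, equal 0.152 to 0.231 CPM. Reads near the 3' end were counted and not divided by transcript length. The tissue label was checked with 17 genes of tear proteins, which summed to between 175271 and 542083 CPM in each library and of which 1, Scgb2b3, was never over the floor. Libraries numbered 4 stood apart in both diets for several genes, as given beside each.

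Exocrine acinar cells pack digestive enzymes and defence proteins into granules and release them into a duct. Amylase cuts starch, the pancreatic lipase family with its cofactor colipase cuts dietary fat, and DNase I cuts DNA outside cells. In rodents Amy1 is the amylase of the parotid gland and the Amy2 genes are those of the pancreas. Bpifa2 encodes parotid secretory protein, a member of the BPI-fold family of lipid-binding defence proteins.

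The genes lie in several places of the GRCm38 genome (GENCODE vM21). Amy1 lies on chromosome 3 from 113555710 to 113606699 on the minus strand, in a cluster with Amy2a5 from 113247178 to 113258837. Bpifa2 lies on chromosome 2 from 154008265 to 154016079, Dnase1 on chromosome 16 from 4036942 to 4040024 and Pnliprp1 on chromosome 19 from 58728887 to 58744169, all on the plus strand. Pnliprp2 follows Pnliprp1 on the same chromosome and strand, from 58759719 to 58777534. Dnase1 shares exon bases with Trap1 on the other strand, whose own level lay between 9.23 and 16.6 CPM in the 8 libraries. Amy1 shares exon bases with Rnpc3 on the same strand, which had between 12.5 and 28.6 CPM. None of the 75-base windows in the last 600 bases of Amy1, Bpifa2, Dnase1 or Pnliprp1 occurred in a transcript of another gene.

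The 250 bases before the start site are shown for Amy1 and Bpifa2, whose levels moved together over the libraries, and for Pnliprp1, the counted gene that was lower in CR. They are RefSeq sequence of GRCm38.p6, 5' to 3' on the gene's strand, and 7 of the 8 genes had an entry. They span chr3:113577751-113578000 on the minus strand for Amy1, chr2:154008026-154008275 on the plus strand for Bpifa2 and chr19:58728637-58728886 on the plus strand for Pnliprp1. RefSeq's table holds 2 starts for Amy1, of which the more upstream is shown, and both lie inside the GENCODE gene, which reaches further upstream. Capitals mark each AGAACA, a half-site of the glucocorticoid receptor, or its reverse complement TGTTCT.
Amy1: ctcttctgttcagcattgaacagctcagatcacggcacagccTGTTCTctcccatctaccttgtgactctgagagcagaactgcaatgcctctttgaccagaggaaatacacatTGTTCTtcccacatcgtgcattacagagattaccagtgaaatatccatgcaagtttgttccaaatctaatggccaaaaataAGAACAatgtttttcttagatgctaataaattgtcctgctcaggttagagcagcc
Bpifa2: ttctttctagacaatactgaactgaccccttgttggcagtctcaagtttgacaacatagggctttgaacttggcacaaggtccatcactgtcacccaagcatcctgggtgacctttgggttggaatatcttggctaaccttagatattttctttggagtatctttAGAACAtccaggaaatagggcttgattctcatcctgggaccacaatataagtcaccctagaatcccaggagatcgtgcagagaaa
Pnliprp1: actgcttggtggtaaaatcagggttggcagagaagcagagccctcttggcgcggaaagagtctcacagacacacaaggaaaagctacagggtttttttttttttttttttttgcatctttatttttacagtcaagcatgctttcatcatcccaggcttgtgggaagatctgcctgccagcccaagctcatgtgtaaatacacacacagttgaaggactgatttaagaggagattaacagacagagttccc
The 5 motifs searched on both strands were the TATA box TATAAA, the first E-box form CATATG, a further E-box form CAGCTG, another E-box form CACGTG and the half-site AGAACA. No match overlapped another in these windows. The Amy1 window held AGAACA at 3 positions, on the gene's strand from 55 to 50 bases before the start and on the opposite strand from 208 to 203 and from 136 to 131. The Bpifa2 window held it at 1 position, from 85 to 80 bases before the start, and the Pnliprp1 window held none of the 5 motifs. Of 32851 such windows in the table, 16.1% held the half-site and 12.4% the TATA box. The E-box form CATATG was in 3.46% of them, the form CAGCTG in 13.0% and the form CACGTG in 6.02%. The window of the other Amy1 start held TATAAA on the gene's strand from 63 to 58 bases before it and AGAACA on the opposite strand from 242 to 237. Matches are letters in a window and not binding sites.

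Bpifa2 was a major transcript of the CR libraries. Its AL libraries, by replicate number, held 17725, 9805, 7909.6 and 189.9 CPM. The CR libraries in the same order held 167792, 165017, 151041 and 13685 CPM. CR replicates 1 to 3 lay far above every AL library, CR replicate 4 lay inside the AL range, and AL replicate 4 lay far below all others. In CR replicates 1 to 3 Bpifa2 was the most counted gene, with 16.5, 16.6 and 17.8% of all reads. It took 1.28% in CR replicate 4 and from 0.0169 to 1.58% in the AL libraries. The mean was 8907 ± 7200.4 CPM in AL and 124384 ± 74163 CPM in CR (SD, n = 4 each), a fitted log2 fold change of 3.80 with a standard error (SE) of 1.13. The fit across genes was edgeR's quasi-likelihood test, and calls required a p below 0.05 after Benjamini-Hochberg adjustment together with a change of 1.5-fold or more. Bpifa2 was not called.

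Amy1, the salivary amylase, repeated this pattern library by library. Its AL libraries, by replicate number, held 5624, 2857, 1879 and 45.4 CPM. The CR libraries in the same order held 39244, 50700.5, 31776 and 3273 CPM. Again CR replicate 4 lay within the AL range, and AL replicate 4 was the lowest of all. The fitted log2 fold change was 3.59 (SE 1.10), from a mean of 2601 ± 2328 CPM in AL to 31249 ± 20209 CPM in CR (SD, n = 4 each), and Amy1 was not called. Amy1 and Bpifa2 together took 20.3, 21.7 and 21.5% of the reads in CR replicates 1 to 3 and 1.58% in CR replicate 4. In AL replicates 1 to 4 they took 2.09, 1.29, 1.12 and 0.0209%.

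Dnase1, which encodes the secreted endonuclease DNase I, differed less between the libraries. Its AL libraries, by replicate number, held 1782, 2111, 788 and 1779 CPM. The CR libraries in the same order held 3603, 7241, 3297 and 2023 CPM. CR replicates 1 to 3 lay above every AL library, whereas CR replicate 4 lay just under AL replicate 2. AL replicate 4 was in the middle of its group and AL replicate 3 was the lowest, unlike for Amy1 and Bpifa2. The means were 1615 ± 573 CPM in AL and 4041 ± 2241 CPM in CR (SD, n = 4 each), with a log2 fold change of 1.32 (SE 0.43), and the gene was not called.

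Pnliprp1 went the other way. It encodes pancreatic lipase-related protein 1, a relative of pancreatic lipase for which little lipase activity is known. It had 206, 123, 85.7 and 244 CPM in AL replicates 1 to 4, from 2681, 2005, 1177 and 4813 counts. In CR replicates 1 to 4 it had 0.495, 7.75, 0.309 and 2.83 CPM, from 7, 131, 5 and 51 counts. Every CR library lay below every AL library, and AL replicate 4, lowest in Amy1 and Bpifa2, was the highest in Pnliprp1. The mean was 165 ± 73.0 CPM in AL and 2.85 ± 3.46 CPM in CR (SD, n = 4 each). The fitted log2 value was -5.84 (SE 0.80), or 57.1-fold lower in CR. It was the only member called, 1 of the 4 tested, where 1.98% of all 11211 genes tested were called, 1.20% higher and 0.785% lower in CR. It was also the only one of the 4 without overlap between the diets, as were 9.79% of all genes tested, 4.58% higher and 5.20% lower in CR. Since these genes were picked with this contrast known, nothing is read from these counts.

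**Figure D1:**
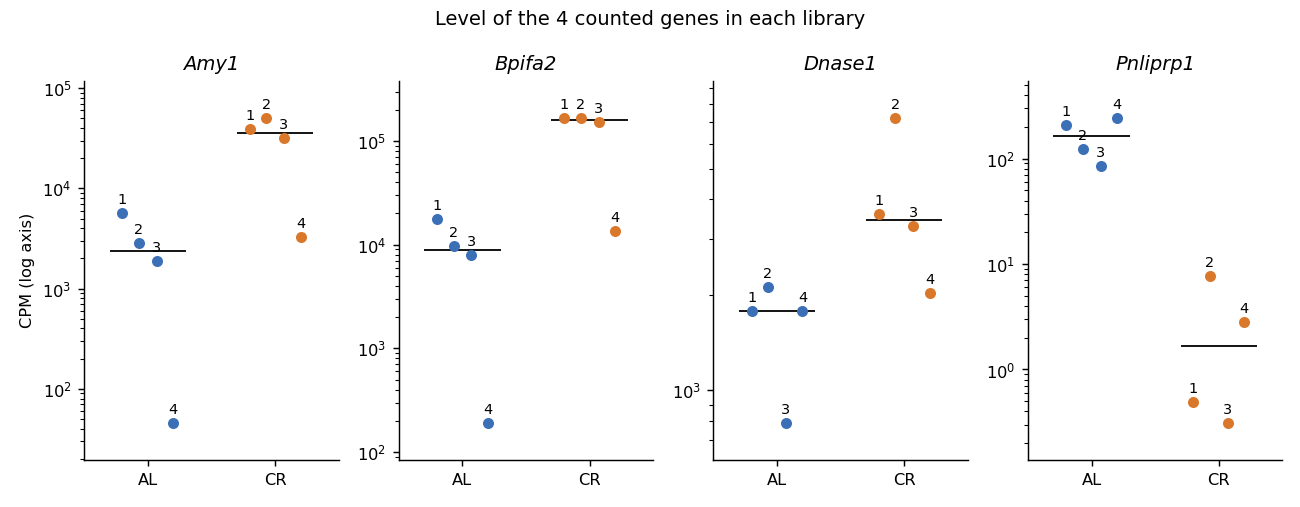
Level of each counted gene in CPM on a log axis, 1 point per library with its replicate number, and a bar at the median of each diet (n = 4). CR replicates 1 to 3 sit above the AL libraries for Amy1, Bpifa2 and Dnase1, CR replicate 4 sits within the AL range for these 3 genes, and all CR libraries sit below all AL libraries for Pnliprp1.

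The other 4 genes were hardly counted. Amy2a5, a pancreatic amylase, had 0 counts in all 8 libraries, which allows up to 0.152 to 0.231 CPM depending on the library. Cel, the bile salt-dependent lipase, had 1 count in all, in AL replicate 3. Clps, colipase, had by number 1, 3, 5 and 4 counts in AL and 3, 2, 0 and 0 counts in CR. Pnliprp2, which cuts galactolipids and triglycerides, had 4 counts in AL replicate 2 and 9 in CR replicate 3, and 0 elsewhere. At this depth no difference between the diets was detectable in these genes. For Amy2a5 the count of 0 also depends on the annotation. All of the 526 windows before its RefSeq end occur in transcripts of Amy2a2, Amy2a3 and Amy2a4, each also at 0, and 80 of them also in Amy2b, which had by number 6, 1, 0 and 0 counts in AL and 1, 15, 5 and 0 counts in CR, while the GENCODE gene runs 2000 bases further, to an end whose windows no other gene shares. How reads that align to several genes were treated is not given in the sources used here. No window of the Amy1 end was shared with an Amy2 gene.

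Amy1 and Bpifa2 kept nearly the same proportion to each other. The ratio of Amy1 to Bpifa2 counts was 0.317, 0.291, 0.238 and 0.239 in AL replicates 1 to 4. It was 0.234, 0.307, 0.210 and 0.239 in CR replicates 1 to 4. The highest ratio was 1.51 times the lowest, while the level of Bpifa2 itself spanned 884-fold and that of Amy1 1118-fold. The ratios of the diets overlapped, and AL replicate 4 and CR replicate 4 had nearly the same ratio as AL replicate 3. Among the 11210 other genes tested, Amy1 had the narrowest range of its ratio to Bpifa2, where the median gene counted in every library spanned 1098-fold. Dnase1 held no such proportion. Its ratio to Bpifa2 lay between 0.0215, in CR replicate 1, and 9.37, in AL replicate 4, a 436-fold range. For Pnliprp1 that ratio ran from 2.05e-06 in CR replicate 3 to 1.28 in AL replicate 4.

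**Figure D2:**
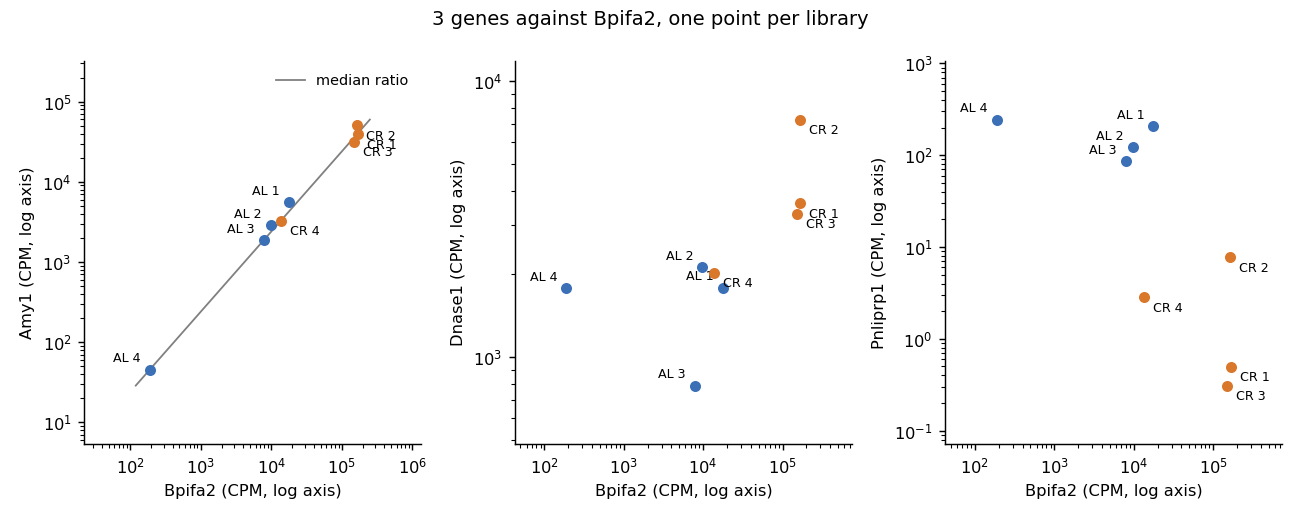
Levels of Amy1, Dnase1 and Pnliprp1 against that of Bpifa2 in CPM on log axes, 1 point per library, with a grey line at the median Amy1 to Bpifa2 ratio. The Amy1 points follow the line from AL replicate 4 to the CR libraries, with ratios between 0.210 and 0.317, and the points of Dnase1 and Pnliprp1 do not.

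On a log2(CPM + 1) scale, Pearson's r of Amy1 and Bpifa2 over the 8 libraries was 0.998, and 0.997 after each diet was centred on its mean. These and the following correlations are descriptions over libraries that share scaling and composition. Without both libraries numbered 4 the first value was 0.994 over 6 libraries. For Dnase1, r with Bpifa2 was 0.62 over 8 libraries, 0.22 after centring and 0.86 without the libraries numbered 4. For Pnliprp1, r with Bpifa2 was -0.75 over 8 libraries, -0.31 after centring and -0.91 without the libraries numbered 4. Pnliprp1 and Dnase1 had r of -0.58 over 8 libraries but 0.53 after centring, so that their relation between diets and within diets differed in sign.

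With AL replicate 4 included, Amy1 and Bpifa2 varied more within the AL group than nearly all other genes. The SD of log2(CPM + 1) over the 4 AL libraries was 3.10 for Amy1 and 2.97 for Bpifa2, where the median gene tested had 0.31 and where 0.00892 and 0.0178% of genes had a larger SD. Over the 4 CR libraries it was 1.82 and 1.78, against a median of 0.33. Within AL the highest library exceeded the lowest 124-fold for Amy1 and 93.4-fold for Bpifa2, but 2.68-fold for Dnase1 and 2.85-fold for Pnliprp1. The lowest AL library for Amy1 and Bpifa2 was replicate 4, at 45.4 and 189.9 CPM. AL replicates 1 to 3 ranged only from 1879 to 5624 CPM for Amy1 and from 7909.6 to 17725 CPM for Bpifa2. Within CR the span was 15.5-fold for Amy1, 12.3-fold for Bpifa2, 3.58-fold for Dnase1 and 25.1-fold for Pnliprp1. The even group for Pnliprp1 was thus AL, where it was high, and the uneven group was CR, where it was near the floor in replicates 1 and 3.

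Compared number by number, each of the 4 counted genes kept 1 direction in all 4 comparisons. For Pnliprp1 this followed from the lack of overlap between the diets. The labels do not say that the numbers pair mice. The share of all genes that kept 1 direction was not counted, so nothing is read from this. Bpifa2 was 9.47, 16.8, 19.1 and 72.1 times higher in the CR library than in the AL library of numbers 1 to 4. Amy1 was 6.98, 17.7, 16.9 and 72.2 times higher. The largest fold for both was that of number 4, where both libraries were low. Dnase1 was 2.02, 3.43, 4.18 and 1.14 times higher, smallest for number 4. Pnliprp1 was 417, 15.9, 277 and 86.2 times lower.

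With the replicate number as a block in the edgeR quasi-likelihood fit, the log2 fold change was 4.40 (SE 0.62) for Bpifa2, 4.27 (SE 0.57) for Amy1, 1.27 (SE 0.34) for Dnase1 and -6.27 (SE 0.59) for Pnliprp1, and all 4 were called. Over all genes that fit called more as well, 388 higher and 312 lower in CR, or 6.24% of those tested. DESeq2 without a block also called all 4, and 5.19% of the genes it gave an adjusted p, with log2 fold changes of 3.81 (SE 0.73), 3.59 (SE 1.18), 1.33 (SE 0.35) and -5.85 (SE 0.97) in the same order. Leaving out CR replicate 4 brought Bpifa2 to 4.18, Amy1 to 3.96 and Dnase1 to 1.54, and all 3 were then called. Over all genes that fit called more as well, 453 higher and 247 lower in CR of 11401 tested. None of the other 7 fits that left out 1 library called Bpifa2, Amy1 or Dnase1, while each of the 8 called Pnliprp1. Over the 8 fits the log2 fold change stayed between 3.39 and 4.39 for Bpifa2, 3.17 and 4.30 for Amy1, 0.89 and 1.54 for Dnase1, and -7.03 and -5.46 for Pnliprp1. Without AL replicate 4 it was 3.39 for Bpifa2 and 3.17 for Amy1, the lowest values of these fits, and without AL replicate 1 it was 4.39 and 4.30, the highest. Without CR replicate 2 the Dnase1 value was lowest, at 0.89, and that of Pnliprp1 was -7.03.

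**Figure D3:**
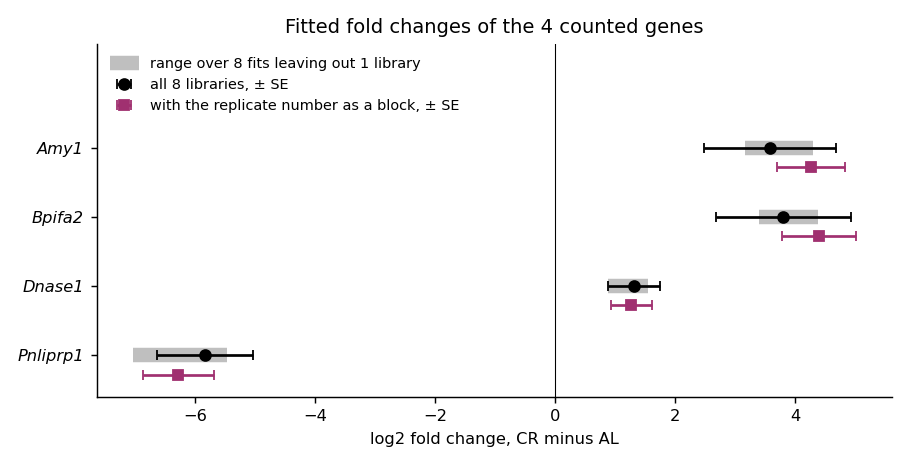
Log2 fold change of CR minus AL for the 4 counted genes, from all 8 libraries (circles ± SE), from the fit with the replicate number as a block (squares ± SE) and as the range over 8 fits that each left out 1 library (grey bars). Amy1, Bpifa2 and Dnase1 stay above 0 and Pnliprp1 stays below 0 in each.

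Markers of other glands were examined beside these genes. Of 5 genes that mark the parotid gland, all were tested and all lay higher in every CR library than in every AL library, as did 4.58% of all genes tested. Prp2, Prh1 and Prb1, which encode proline-rich salivary proteins, were called higher, where 1.20% of all genes tested were, with log2 fold changes of 9.85 (SE 1.48), 9.72 (SE 1.78) and 5.88 (SE 1.27) and edgeR-adjusted p-values of 0.00701, 0.0207 and 0.0377. The list sums to between 11778 and 28514 CPM in AL and between 37427 and 86740 CPM in CR, most of it Car6, a secreted carbonic anhydrase that AL replicate 4 also held at 11777 CPM. The other 4 genes sum by replicate number to 128, 38.8, 52.0 and 1.42 CPM in AL and to 4015, 14449, 573 and 918 CPM in CR. Car6 and Prpmp5 were not called in this fit but were with the replicate number as a block (log2 fold change 1.69, SE 0.42, and 4.39, SE 0.62, with edgeR-adjusted p-values of 0.0345 and 0.00157). Prh1 and Prp2 were at 0 counts in AL replicates 2 and 4. Bpifa2 was not in a fixed proportion to them, since the ratio of Prb1 to Bpifa2 counts spanned 22.6-fold. Of 8 genes marking the submandibular and sublingual glands, 5 were tested and Dcpp3 was called higher (log2 fold change 5.04, SE 1.11, edgeR-adjusted p = 0.0423). Dcpp1, Dcpp2 and Smr3a had log2 fold changes of 3.95, 4.24 and 3.82 and were called higher, with Dcpp3, by the fit with the replicate block and by DESeq2, while Egf was at -0.05 with overlapping diets. Smgc, at 0, and Muc19, also of this list, were not over the floor in any library. The submandibular and sublingual list sums to between 96.3 and 4962 CPM in AL and between 5041 and 58882 CPM in CR. Most of that is Smr3a, which had between 78.0 and 4464 CPM in AL and between 4770 and 53138 CPM in CR. Of the 17 lacrimal genes 16 were tested, and Scgb2b7 and Scgb1b7 were called lower, where 0.785% of all genes tested were (log2 fold change -7.96, SE 1.45, and -7.82, SE 1.45; edgeR-adjusted p = 0.0197 and 0.0211). Of the 16 genes 14 had a log2 fold change below 0, and Scgb1b27 and Scgb2b27 had values of 2.68 and 2.19. With the replicate block, which called 6.24% of all genes tested, 7 of them were called lower, Scgb2b7, Scgb1b7, Scgb2b20, Scgb1b20, Obp1b, Scgb1b24 and Scgb2b26 at log2 fold changes from -9.35 to -0.85, and Scgb1b27 and Scgb2b27 were called higher. The lacrimal list sums to between 380316 and 542083 CPM in AL, where replicate 4 was highest, and to 225232, 175383, 175271 and 452264 CPM in CR replicates 1 to 4. Of 6 adipocyte genes 4 were tested and Fabp4, a fatty acid carrier, was called higher (log2 fold change 2.37, SE 0.44, edgeR-adjusted p = 0.0208), and this list sums to between 7.50 and 18.0 CPM in AL and 23.4 and 93.8 CPM in CR. The fit with the replicate block called 3 of the 4 higher, Fabp4, Adipoq (log2 fold change 1.92) and Cfd (log2 fold change 1.76), against 6.24% of all genes tested in either direction. DESeq2 called Fabp4 and Adipoq higher. Leaving out 1 library, Prp2 was called in each of 8 fits, Prh1 in all but those without AL replicate 2 or 3, and Prb1 and Dcpp3 only in those without AL replicate 4 or CR replicate 4. Scgb2b7 and Scgb1b7 were then called in 4 fits, without AL replicate 3 or 4 or CR replicate 1 or 4, and Fabp4 in 3, without AL replicate 4 or CR replicate 1 or 4. Over these 8 fits the log2 fold change ran from 7.90 without CR replicate 2 to 12.53 without AL replicate 1 for Prp2, from 8.10 to 11.64 for Prh1 and from 4.60 to 7.08 for Prb1, at the same libraries. Without CR replicate 4 it was -13.47 for Scgb2b7 and -12.11 for Scgb1b7, and the fits without other libraries reached -7.29 and -7.39, both without AL replicate 1. The part of other glands or fat in the levels of Amy1, Bpifa2, Dnase1 and Pnliprp1 was not tested.

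**Figure D4:**
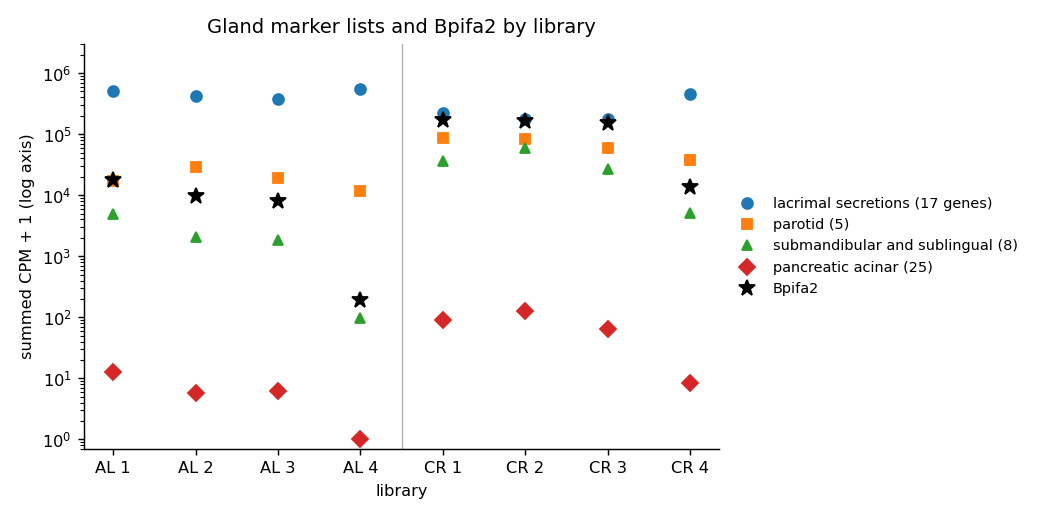
Summed CPM + 1 of 4 marker lists and of Bpifa2, on a log axis, in each library. Bpifa2 is lowest in AL replicate 4, as is the submandibular and sublingual list at 96.3 CPM, most of it Smr3a, and the lacrimal list is lower in CR replicates 1 to 3 than in the other 5 libraries.

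Markers of pancreatic acinar cells were near 0. Of 25 such genes 18 had no count in any library, among them the elastase Cela3b, the carboxypeptidase Cpa1, chymotrypsinogen Ctrb1 and trypsinogen Prss1. Pancreatic lipase, Pnlip, had 1 count in each of AL replicates 1 and 3. The list summed to between 0 and 11.5 CPM in AL and between 7.32 and 126 CPM in CR. Without Rnase1 it summed to at most 1.91 CPM in a library, and the pancreas factors Ptf1a and Rbpjl were at 0 counts. Rnase1, a secreted ribonuclease, was the 1 gene of this list that was tested. It had 11.3, 4.29, 4.66 and 0 CPM in the AL libraries by number and 88.3, 125, 62.4 and 7.21 CPM in the CR libraries. As for Bpifa2, the library numbered 4 was the lowest in each diet, and CR replicate 4 lay within the AL range. The log2 fold change was 3.83 (SE 0.96, edgeR-adjusted p = 0.0635), and with the replicate block it was 4.05 (SE 0.38, edgeR-adjusted p = 8.52e-05). As the 1 gene tested, Rnase1 was not called by this edgeR fit without the block and had an unadjusted p under 0.05, as had 16.7% of all genes tested. DESeq2 called 0 of the 25 genes.

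Among other lipases, listed by function, Pla1a and Pnpla2 were called. Pnpla2, which starts the breakdown of stored triglycerides inside cells, rose from 20.1 ± 3.81 to 54.1 ± 19.6 CPM (log2 fold change 1.43, SE 0.28, edgeR-adjusted p = 0.0277), and CR replicate 4, at 25.4 CPM, lay within the AL range. Pla1a, a secreted phospholipase A1, fell from 4.32 ± 1.67 to 1.26 ± 0.479 CPM (log2 fold change -1.78, SE 0.41, edgeR-adjusted p = 0.0497), with no overlap between the diets. Of 18 listed lipases 7 were tested, 1 was called higher and 1 lower, against 1.20 and 0.785% of all genes tested, and the median log2 fold change was -0.02, against 0.01 over all genes tested. Lost without 1 library were the call of Pla1a in 7 of 8 fits, all but that without CR replicate 4, and that of Pnpla2 in 6, all but those without AL replicate 3 or CR replicate 4. The call of Pla1a was also lost with TMM factors and without both libraries numbered 4.

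Among 15 carbohydrate-cutting enzymes, 13 were in the table and 4 were tested. Chia1, an acidic chitinase, had 1436, 1221, 782 and 17.7 CPM in the AL libraries by number and 12455, 12874, 13911 and 652 CPM in the CR libraries. As for Bpifa2, the library numbered 4 was the lowest of each diet, while CR replicates 1 to 3 came in the reverse order. The log2 fold change was 3.53 (SE 1.07, edgeR-adjusted p = 0.115), and with the replicate block it was 3.95 (SE 0.42, edgeR-adjusted p = 0.000178). The ratio of Chia1 to Bpifa2 counts spanned 2.61-fold. The lysosomal glucosidase Gaa had a log2 fold change of 0.38, with overlapping diets. Of this list edgeR called 0, 2 of 4 had an unadjusted p under 0.05, against 16.7% of all genes tested, and DESeq2, run on all genes of the table, called 1, Chit1, which did not pass the filter for edgeR. The median log2 fold change was 0.98.

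Of 11 nucleases other than Dnase1, 6 were tested, edgeR called 0 and 1 had an unadjusted p under 0.05, which was Rnase1, a share like the 16.7% of all genes tested. DESeq2 called 1. DESeq2 was run on all genes of the table, and its call was Dnase1l2, which did not pass the filter for edgeR. Rnaset2b and Rnase4, both ribonucleases, had log2 fold changes of 0.02 and -0.48 with overlapping diets. The median of the list was 0.20. Among 16 BPI-fold genes other than Bpifa2, 15 were in the table, 6 of them at 0 throughout, and 3 were tested. Bpifa6 had between 0.91 and 34.4 CPM, Pltp, a phospholipid carrier, had a log2 fold change of -0.75, and Lbp, which binds bacterial lipopolysaccharide, had one of 2.33 (SE 0.70, edgeR-adjusted p = 0.111). With the replicate block the value for Lbp was 2.08 (SE 0.45, edgeR-adjusted p = 0.0183). Of these edgeR called 0, 2 of 3 had an unadjusted p under 0.05, against 16.7% of all genes tested, and DESeq2 called 2, Lbp and Bpifb4, of which Bpifb4 did not pass the filter for edgeR. The median log2 fold change was -0.28.

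Of 21 transcription factors of secretory and glandular cells, 14 were tested and 2 were called, both higher, against 1.20% of all genes tested. With the replicate block 4 were called, against 6.24% of all genes tested, the same 2 and Etv1 higher (log2 fold change 1.10) and Pax6 lower (log2 fold change -0.78), and DESeq2 called Creb3l1, Sox10 and Etv1. Creb3l1, which drives genes of the secretory pathway, rose from 26.3 ± 7.18 to 87.1 ± 14.4 CPM (log2 fold change 1.72, SE 0.22, edgeR-adjusted p = 0.00389). In CR replicate 4 it was at 79.3 CPM, among the other CR libraries. Sox10, a factor of gland acini and neural crest, rose from 15.3 ± 2.52 to 67.1 ± 28.6 CPM (log2 fold change 2.13, SE 0.32, edgeR-adjusted p = 0.00746). In CR replicate 4 it was at 26.3 CPM, above every AL library and below the other CR libraries. Both calls held in each of the 8 fits that left out 1 library. Bhlha15, which shapes the granules of acinar cells, averaged 172 ± 22.7 CPM (AL) and 200.5 ± 28.1 CPM (CR) and was not called. The median log2 fold change of the list was 0.23.

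Genes outside the members whose course over the 8 libraries was most like theirs were found by Pearson's r of log2(CPM + 1), with no test. For Amy1 they were Dcpp1 (r = 0.998), 2310057J18Rik (0.992) and Cst10 (0.992), and for Bpifa2 they were Scgb1b27 (0.996), Dcpp1 (0.995) and Chia1 (0.992). Scgb1b27 is itself one of the 17 lacrimal genes, though their sum was lowest in CR replicates 1 to 3. All of these stayed at 0.985 or above without both libraries numbered 4. For Dnase1 they were Dnm2 (0.985), Spns2 (0.975) and Dock6 (0.975). For Pnliprp1 they included Vstm4 (0.988) and Atp8a1 (0.981), whose values after centring on the diets were 0.87 and 0.77. Among the 3 nearest genes of each member, Dnase1 and Pnliprp1 shared none with Amy1 or Bpifa2. For Pnliprp1 this followed from its r of -0.72 with Amy1 and -0.75 with Bpifa2.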

How the data were processed

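Transcript 3' ends from the LGs of 8 mice, 4 per diet, were sequenced (QuantSeq, forward kit). The authors used cutadapt for trimming, STAR for alignment to mm10 and HTSeq for counts per gene. Versions, annotation and strand setting are not given in the sources used here. The deposited counts were analysed. The deposited log2 values were recomputed from the counts, RLE size factors and an added 1 without any difference, and were not used further. After 5 repeated symbols were dropped, 24552 of 24557 rows remained, 16735 with a count, and 11211 passed edgeR's filterByExpr.

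The diets were compared by edgeR 4.0.16 (R 4.3.3) with RLE factors and quasi-likelihood F tests, adjusted by Benjamini-Hochberg over all genes tested. The SE is the log2 fold change over the square root of F. Means are given with the SD of 4 libraries. Intervals and floors of 3 counts cover counting error only. The fit was tested on simulated data. The members and gene lists were chosen with earlier results of these data known. Named are all members, up to 5 called genes of each list or else its 3 with the highest mean CPM, the 3 genes nearest to each member tested, and genes whose values a sentence turns on, chosen after they were seen. In likeness, CPM + 1 was used on the log2 scale. A comparison of proteins was planned but is not reported here, and some genes that the rule names are not reported here.

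Replicate numbers are in the labels, which do not say that they pair mice. The deviations of same-numbered libraries from their diet means correlated over 11211 genes at 0.21, 0.11, 0.30 and 0.54 for numbers 1 to 4. Libraries of different numbers were not compared in this way, so these values do not show that a shared number makes libraries alike. A fit with the number as a block is given beside the results only as an alternative, as is DESeq2 1.42.0. Other alternatives were TMM and upper-quartile factors, other filters, no fold threshold, leaving out each library or both numbered 4, and leaving out the 50 most counted genes. Positions are from GENCODE vM21 on GRCm38, the build that mm10 names.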

Additional observations from a re-analysis of the deposited data

Results flagged for a closer look

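Bpifa2 in the CR libraries held a library far from the others. The gap between CR replicate 4, at 13685 CPM, and the next library, at 151041 CPM, made up 0.891 of the whole range, above the critical value of Dixon's test for 4 samples. It was the only 1 of 8 groups examined, 4 genes in 2 diets, to pass. Chance flags about 1 in 20 for each group, so 1 flag among 8 groups carries little weight. The ratio was taken on CPM and not on the log2 scale.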

How the results depend on the processing

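All 4 counted genes kept the direction of their log2 fold change under every alternative that could fit them. Pnliprp1 was called in 16 of 16 alternatives, and with at least 10 counts required in every library it was not tested, which left 0 members called lower. Members called higher were 0 in the edgeR fit, 3 with DESeq2, 2 with no filter on low counts (Amy1 and Bpifa2), 3 with the replicate block and 3 without both libraries numbered 4, and ranged from 0 to 3 when 1 library was left out. Genes called higher and lower over all numbered 134 and 88. They were 399 and 305 with DESeq2, 271 and 165 with no filter, 388 and 312 with the replicate block and 413 and 243 without both libraries numbered 4, and leaving out 1 library gave 35 (without AL replicate 2) to 453 (without CR replicate 4) and 25 (without CR replicate 2) to 247 (without CR replicate 4). Listed genes called higher and lower numbered 8 and 3. They were 19 and 6 with DESeq2, 20 and 5 with no filter, 5 and 1 with at least 10 counts in every library, 21 and 9 with the replicate block and 23 and 7 without both libraries numbered 4, and leaving out 1 library gave 3 to 22 and 0 to 8. The cause of these differences was not tested. Depth limits Amy2a5, Cel, Clps and Pnliprp2, for which no fold is given. Among members and listed genes whose difference between diets is given, the replicate block changed no call beyond those named beside the results. For genes named only for likeness it was not examined.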

Other observations

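Besides Amy1, the ratio to Bpifa2 counts spanned less than 3-fold over the 8 libraries for 4 of the other genes tested, chosen here by that range. They were Crisp1, at 2.28-fold, Chia1, at 2.61-fold, the glandular kallikrein Klk1, at 2.67-fold, and Smr3a, which encodes a submaxillary androgen-regulated protein, at 2.74-fold. The proline-rich genes Prh1 and Prp2 had no finite span, since each was at 0 counts in AL replicates 2 and 4, and Car6 spanned 159-fold.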
